A study of Homo sapiens with 12 samples.

Results

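The genes that carry glucose into the cell, break it down to lactate, hold pyruvate back from the mitochondria, and build or degrade glycogen were followed in MDA-MB-231 cells, a human line established from metastatic breast cancer. The list holds 34 genes of these functions and was set with earlier results of these data known. Of them, 32, out of 19775 genes named on the arrays, had a probe set that names no other gene. Both missing genes, the monocarboxylate transporters SLC16A1 and SLC16A3, were not analysed here. A gene was read on its brightest probe set, the one with the highest mean over all arrays, and the 71 tested probe sets of the members were also read one by one. Affymetrix whole-genome arrays were hybridised with RNA of 12 samples, in 3 groups of 4 replicates lettered A to D. Control cells had received a retrovirus with a hairpin against GFP, shHIF cells a retroviral construct with hairpins against HIF1a and HIF2a, and Sharp1 cells overexpressed Sharp1, the repressor encoded by BHLHE41. All were the same cell line, grown in DMEM/F12 with serum, and were harvested from normal culture with no treatment. The vector and promoter that drive Sharp1, a matched empty-vector control and the number of clones are not stated in the labels used here, and the GFP hairpin served as control for Sharp1 cells too. The labels call the replicates biological without saying whether they came from separate transductions, and p-values therefore measure the spread between these arrays.

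Glucose enters through facilitative transporters, is trapped by hexokinase, is committed to glycolysis by phosphofructokinase, and leaves as lactate through lactate dehydrogenase. The bifunctional PFKFB enzymes set the level of fructose 2,6-bisphosphate, the strongest activator of phosphofructokinase, and pyruvate dehydrogenase kinases (PDK) switch off the entry of pyruvate into the citric acid cycle. In hypoxia, HIF dimers bind a short core sequence near many of these genes and raise their transcripts, and carcinoma cells often keep the program on in air. Sharp1 belongs to the basic helix-loop-helix repressors that bind E-boxes, and it has been studied as a factor that promotes the loss of HIF alpha proteins.

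All values are log2 signals made with RMA by the submitters, and a difference of 1 is a doubling. Array medians lay between 5.39 and 5.44, and the lowest correlation within a group was 0.996. The targeted transcripts moved with the labels on these probe sets: EPAS1, the gene of HIF2a, read 9.48 to 9.60 in control and 6.40 to 6.83 in shHIF cells, HIF1A read 12.75 to 12.80 and 11.99 to 12.10, and 1 BHLHE41 probe set read 3.82 to 3.95 in control and 8.87 to 9.56 in Sharp1 cells. The brightest BHLHE41 probe set went the other way, from 6.62 in control to 4.56 in Sharp1 cells (-2.06, limma adjusted p over all probe sets 7.05e-13). Another BHLHE41 probe set rose there by 1.59, and the dimmest differed by -0.13 without a call. EPAS1 was also lower in Sharp1 cells, at 8.81 to 8.85 with no overlap with control (-0.71, SE 0.07, limma adjusted p over all probe sets 7.07e-08, 61.1% of the control signal left), while HIF1A differed there by 0.09 (adjusted p = 0.0836). Markers of the line, VIM (mean 14.4), AXL (13.1), CAV1 (13.1), MSN (12.7) and CD44 (12.3), were bright, and SPARC (3.87) was dim. Of 7 epithelial and luminal markers, CDH1, FOXA1 and PGR lay at 3.48 to 4.45, below the median probe set (5.41), while EPCAM (9.22), GATA3 (8.61), ERBB2 (8.23) and ESR1 (6.34) lay above it. The leukocyte markers PTPRC, CD3E and CD14 read 4.28 to 5.02. Of the fibroblast and endothelium markers, PECAM1 (6.73), PDGFRB (6.19) and VWF (5.45) lay above the median probe set, DCN (5.41) lay at it and LUM (3.59) below it. Spike-in signal was 10.39 and 10.45 on shHIF arrays A and D against 10.6 to 10.8 on the other 10 arrays. The ribosomal RNA reading differed within the Sharp1 group: it was 13.41 to 13.47 on arrays A, C and D and 12.81, the lowest of all, on array B. It was 12.97 to 13.13 in control and 13.17 to 13.20 in shHIF cells. The 3′ excess of actin signal (3′ minus 5′), which grows as RNA degrades, was 0.90 to 0.94 on shHIF A, B and C, 0.62 on shHIF D, 0.85 on Sharp1 C, 0.56 to 0.68 on the other Sharp1 arrays and 0.59 to 0.74 in control. The part of these array properties in the results below was not tested beyond leaving the arrays out.

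Glycolytic genes did not move as a block when Sharp1 was overexpressed. limma called 9 of the 32 members higher and 11 lower at an adjusted p under 0.05, and 12 were not called. Of all genes tested, 27.2% were called, 15.3% higher and 11.8% lower. Since 31 of the 32 members were brighter than the median gene, genes at or above the median signal are the nearer background: 45.8% of them were called, 26.3% higher and 19.6% lower, against 28.1% and 34.4% of the members. The members that rose were the transporter SLC2A3, the hexokinase HK1, the enzymes PFKL, ALDOC, PGAM1 and ENO2, and, of the list's glycogen group, PGM2, GYS1 and PYGL. Those that fell were LDHA and LDHB, 3 of 4 PDKs, PFKP, PFKFB4, PGK1, PGM1, GBE1 and PYGB. The median difference was -0.08 over the members and -0.0019 over all genes, and without Sharp1 array B the counts were again 9 and 11. A transcript that is lower in a culture can be lower per cell or carried by fewer cells, which cannot be told apart here. In 18 members the Sharp1 and control arrays did not overlap, against 28.9% of all genes. That share was not counted among the brighter genes, the nearer background, so no excess is read from it.

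In shHIF cells the calls lay mostly on one side. Of the 32 members, 16 fell, 2 rose and 14 were not called, where 30.8% of all genes were called, 17.6% higher and 13.2% lower, and 50.1% of the genes at or above the median signal (27% higher and 23% lower). The members that fell were SLC2A3, PFKP, all 3 PFKFB enzymes, GAPDH, PGK1, PGAM1, ENO1, LDHA, PDK1, PDK3, PGM1, GBE1, PYGL and PYGB, and those that rose were PFKL and GYS1. The median difference was -0.15 over the members and 0.05 over all genes, which is opposite in sign. PDK1, GBE1, PFKFB2, PGAM1 and PFKFB4 fell by 0.42 to 0.63, and the other 11 by 0.11 to 0.32. Without shHIF A and D, 17 fell and 2 rose. With all arrays, the groups did not overlap for 18 members, against 28.6% of all genes. Here too the share among brighter genes was not counted, and no excess is read from it.

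Both comparisons use the same control arrays, so their values are set side by side, and the difference between them was tested as Sharp1 against shHIF. That comparison called 10 members higher (31.2%) and 5 lower (15.6%) in Sharp1 cells. It called 38.4% of all genes (18% higher, 20.4% lower) and 60.5% of those at or above the median signal (31% higher, 29.5% lower). The share of members called higher was thus near that of the brighter genes. Of the 9 members lower in both groups against control, the difference between the groups was called for 3: PDK1 was lower in shHIF cells, and PDK3 and GBE1 were lower in Sharp1 cells. The share of all genes lower in both was not counted, and a high reading in the shared control arrays lowers both differences. The 9 are therefore not read as a trait of the members. The 3 members that rose in Sharp1 and fell in shHIF cells, SLC2A3, PGAM1 and PYGL, and the 4 that rose in Sharp1 cells without a call in shHIF cells, HK1, ALDOC, ENO2 and PGM2, were all called higher in Sharp1 than in shHIF cells. For SLC2A3, PGAM1 and PYGL this follows from their opposite calls against the same control and is no separate result.

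**Figure D1:**
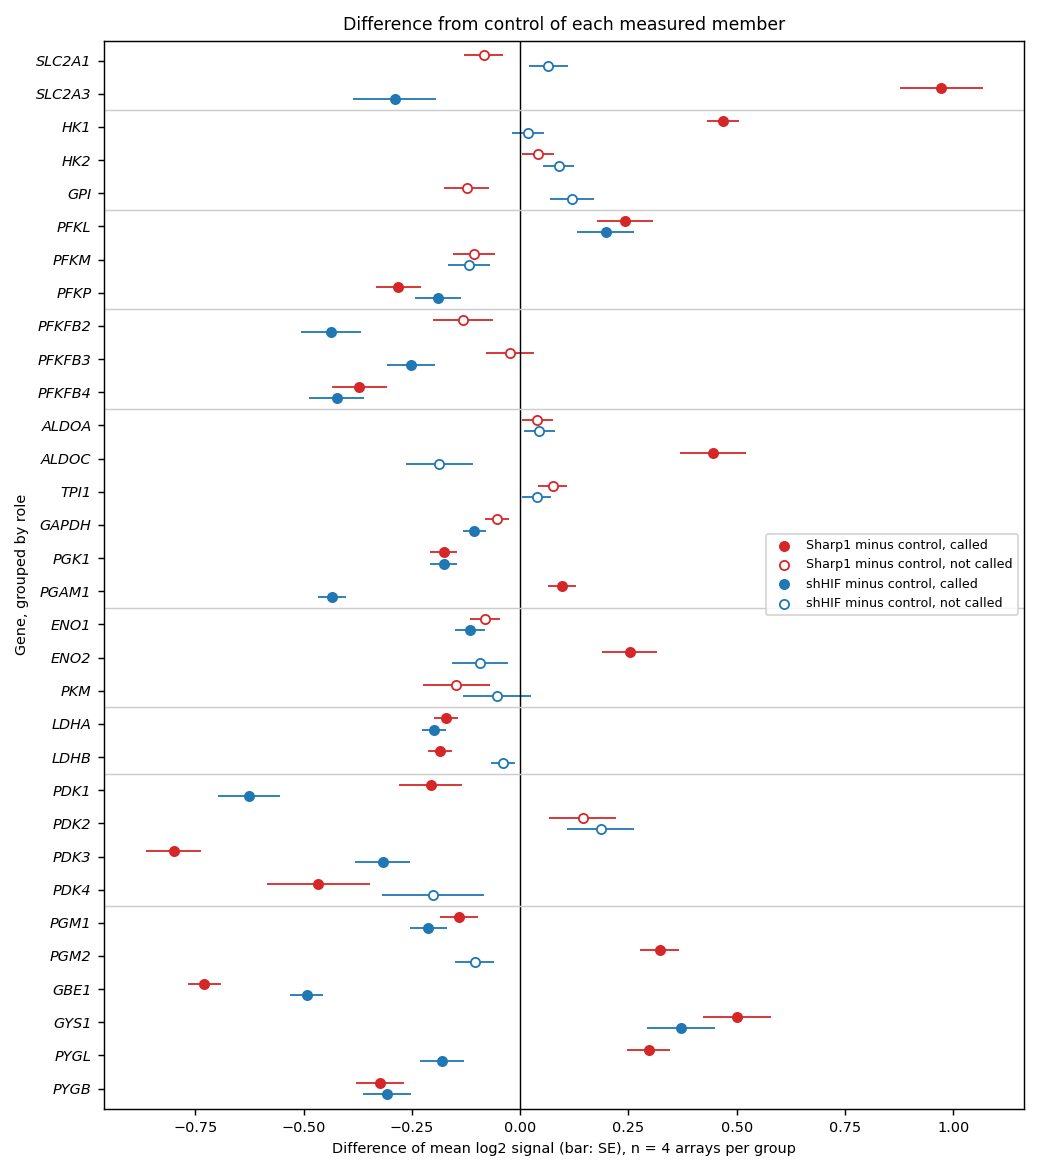
Difference of mean log2 signal from control (x axis) of each of the 32 measured members (y axis, grouped by role) in Sharp1 (red) and shHIF cells (blue), with bars for the standard error, n = 4 arrays per group, and filled points for an adjusted p under 0.05. PDK3 (-0.80) and GBE1 (-0.73) lie farthest left in Sharp1 cells and SLC2A3 (0.97) farthest right, while 16 blue points are filled on the left of 0 and 2 on the right.

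The promoters show what the members share in sequence. RefSeq promoter windows (GRCh38.p14, 250 bases before to 50 after a start) were found for 30 of the 32 measured members, and SLC2A3 and PFKFB2 had none. The hypoxia response core, ACGTG or GCGTG on either strand, was in 35 of 56 member windows (62.5%) and in 48.4% of all 35116 windows of the table. The E-box CACGTG, which reads the same on both strands and contains the core, was in 8 of 56 member windows (14.3%) and in 7.26% of all windows. Counted by gene, 27 of 30 held a core in at least 1 window, but genes have from 1 to 7 windows, so this share has no matching background. A core was found in all 9 members lower in both groups and also in all 8 members called in neither, and none in PGAM1, PYGL and PDK4. A match is a string of letters in this window and no measure of binding. The 250 bases before a start are given for LDHA, PGK1, PDK1, GBE1 and PDK3, which fell in both groups, for ALDOC, which rose in Sharp1 cells and whose window also holds 5 cores, and for PGAM1, which fell in shHIF cells and holds no core. They run 5′ to 3′ on the gene's strand, in lower case, with each core or E-box in capitals (CACGT and CACGC are cores on the other strand).
LDHA, chr11:18394313-18394562, plus strand: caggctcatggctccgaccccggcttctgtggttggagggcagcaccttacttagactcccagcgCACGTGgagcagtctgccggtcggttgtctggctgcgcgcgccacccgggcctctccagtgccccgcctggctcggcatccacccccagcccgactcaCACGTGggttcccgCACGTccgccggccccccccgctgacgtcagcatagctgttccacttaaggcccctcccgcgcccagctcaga
PGK1, chrX:78103998-78104247, plus strand: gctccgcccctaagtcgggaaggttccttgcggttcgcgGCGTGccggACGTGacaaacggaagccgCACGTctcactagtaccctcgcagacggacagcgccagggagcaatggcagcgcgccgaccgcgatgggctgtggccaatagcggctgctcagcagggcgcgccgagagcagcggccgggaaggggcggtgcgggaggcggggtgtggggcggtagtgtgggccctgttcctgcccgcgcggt
PDK1, chr2:172555840-172556089, plus strand: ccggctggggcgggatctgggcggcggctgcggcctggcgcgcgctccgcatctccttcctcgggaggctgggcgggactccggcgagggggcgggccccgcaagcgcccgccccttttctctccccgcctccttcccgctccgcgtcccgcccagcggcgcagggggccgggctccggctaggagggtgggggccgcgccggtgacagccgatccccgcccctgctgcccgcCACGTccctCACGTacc
GBE1, chr3:81761646-81761895, minus strand: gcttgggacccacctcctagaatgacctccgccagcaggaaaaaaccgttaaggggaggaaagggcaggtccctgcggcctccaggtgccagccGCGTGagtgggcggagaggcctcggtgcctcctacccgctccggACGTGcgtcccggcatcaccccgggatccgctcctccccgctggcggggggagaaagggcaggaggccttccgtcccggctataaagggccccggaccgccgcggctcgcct
PDK3, chrX:24465036-24465285, plus strand: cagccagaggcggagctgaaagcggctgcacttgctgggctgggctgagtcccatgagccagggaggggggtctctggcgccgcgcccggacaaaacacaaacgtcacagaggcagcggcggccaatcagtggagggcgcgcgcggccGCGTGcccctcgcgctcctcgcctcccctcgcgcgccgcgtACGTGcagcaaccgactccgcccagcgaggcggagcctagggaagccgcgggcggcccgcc
ALDOC, chr17:28576896-28577145, minus strand: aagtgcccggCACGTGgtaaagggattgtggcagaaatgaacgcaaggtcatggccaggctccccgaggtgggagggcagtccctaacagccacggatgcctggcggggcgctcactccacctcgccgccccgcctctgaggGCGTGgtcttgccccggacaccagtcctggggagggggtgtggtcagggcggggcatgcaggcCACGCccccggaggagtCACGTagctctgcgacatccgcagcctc
PGAM1, chr10:97427568-97427817, plus strand: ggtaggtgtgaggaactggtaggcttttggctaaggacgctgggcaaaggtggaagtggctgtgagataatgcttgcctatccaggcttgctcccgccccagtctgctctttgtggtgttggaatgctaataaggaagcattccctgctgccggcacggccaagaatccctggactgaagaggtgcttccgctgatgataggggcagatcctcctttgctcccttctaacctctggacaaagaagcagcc
LDHA held 5 cores, 4 of them in 2 E-boxes counted on both strands, and PGK1 held 3. PDK1, GBE1 and PDK3 held 2 each. The PDK1 window given is 1 of 2, and its other window holds no core. LDHA also has 2 windows, and the one not given holds 1 core. ALDOC, with 5 cores and 1 E-box, rose in Sharp1 cells where LDHA, with 5 and 2, fell.

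Of the 2 glucose transporters, SLC2A3 was called in both groups against control and SLC2A1 in neither. SLC2A3 (GLUT3, NCBI gene 6515), a high-affinity transporter, read 7.22, 7.27, 7.12 and 7.24 on control arrays A to D, 6.66, 7.13, 7.20 and 6.69 on the shHIF arrays and 8.16, 8.21, 8.13 and 8.24 on the Sharp1 arrays. All 4 Sharp1 arrays lay above every other array, while shHIF arrays B and C lay among the control arrays and only A and D below them. SLC2A3 rose 1.96-fold in Sharp1 cells (log2 0.97, SE 0.10, limma adjusted p = 1.18e-08, n = 4 per group). Each of its 3 probe sets rose there, by 0.97, 0.66 and 0.64. On the brightest probe set, the fall of 0.29 in shHIF cells (SE 0.10, adjusted p = 0.0226) rested on the arrays with low spike-in signal. Without A and D the difference there was -0.04 (adjusted p = 0.764). The call was also lost without shHIF A (0.115), shHIF D (0.0963), control B (0.0633) or control D (0.0514), or without the trend of variance with signal (0.0615). A dimmer SLC2A3 probe set fell by 0.35 in shHIF cells (adjusted p over all probe sets 0.0246), with shHIF B lowest at 5.51. The remaining SLC2A3 probe set differed by -0.22 without overlap and was not called (0.12). Its probe sets are of kinds that can also bind related transcripts such as SLC2A14. SLC2A1 (GLUT1), the basal transporter and a textbook HIF target, read 9.94 to 9.99 in control, 9.97 to 10.08 in shHIF and 9.80 to 9.98 in Sharp1 cells. It was called in neither group against control (-0.08, adjusted p = 0.199, in Sharp1 and 0.07, adjusted p = 0.310, in shHIF cells), except in Sharp1 cells with the mean of its probe sets (-0.15, 0.0495). Sharp1 and shHIF cells differed by -0.15 (adjusted p = 0.0101), a call lost with each array centred on its median (-0.12, 0.0675) and with the mean of its probe sets (-0.13, 0.0731).

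Of the hexokinases, which trap glucose by phosphorylation, HK1 was called on its brightest probe set and HK2 was not. HK1, the constitutive enzyme, read 11.22, 11.21, 11.25 and 11.29 in control, 11.23, 11.31, 11.22 and 11.28 in shHIF and 11.64, 11.72, 11.77 and 11.71 in Sharp1 cells. The Sharp1 arrays lay clear of both other groups, which overlapped. HK1 rose 1.38-fold in Sharp1 cells (log2 0.47, SE 0.04, adjusted p = 2.34e-10) and differed by 0.02 in shHIF cells (adjusted p = 0.762). HK2, the inducible enzyme and a known HIF target, was within 0.09 of control in both groups on its brightest probe set (10.98 in control) and was not called, except higher in shHIF cells without shHIF D (adjusted p = 0.0415), without shHIF A and D (0.0389), with array weights (0.0404) or without dim genes (0.0480). Dimmer HK2 probe sets read otherwise: one rose by 0.26 in Sharp1 cells and another fell by 0.42 in shHIF cells, so no direction is given for HK2 in shHIF cells. GPI, the isomerase that follows, differed by -0.12 in Sharp1 and 0.12 in shHIF cells, without a call in either (adjusted p = 0.0802 and 0.0812). It was called in Sharp1 cells without control B (0.0212), Sharp1 C (0.0403) or shHIF A and D (0.0403) and in a fit of only the groups compared (0.0445), and in shHIF cells without control D (0.0146) or shHIF C (0.0288). The direct difference between Sharp1 and shHIF cells, -0.24 (SE 0.05), had an adjusted p of 0.000389.

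**Figure D2:**
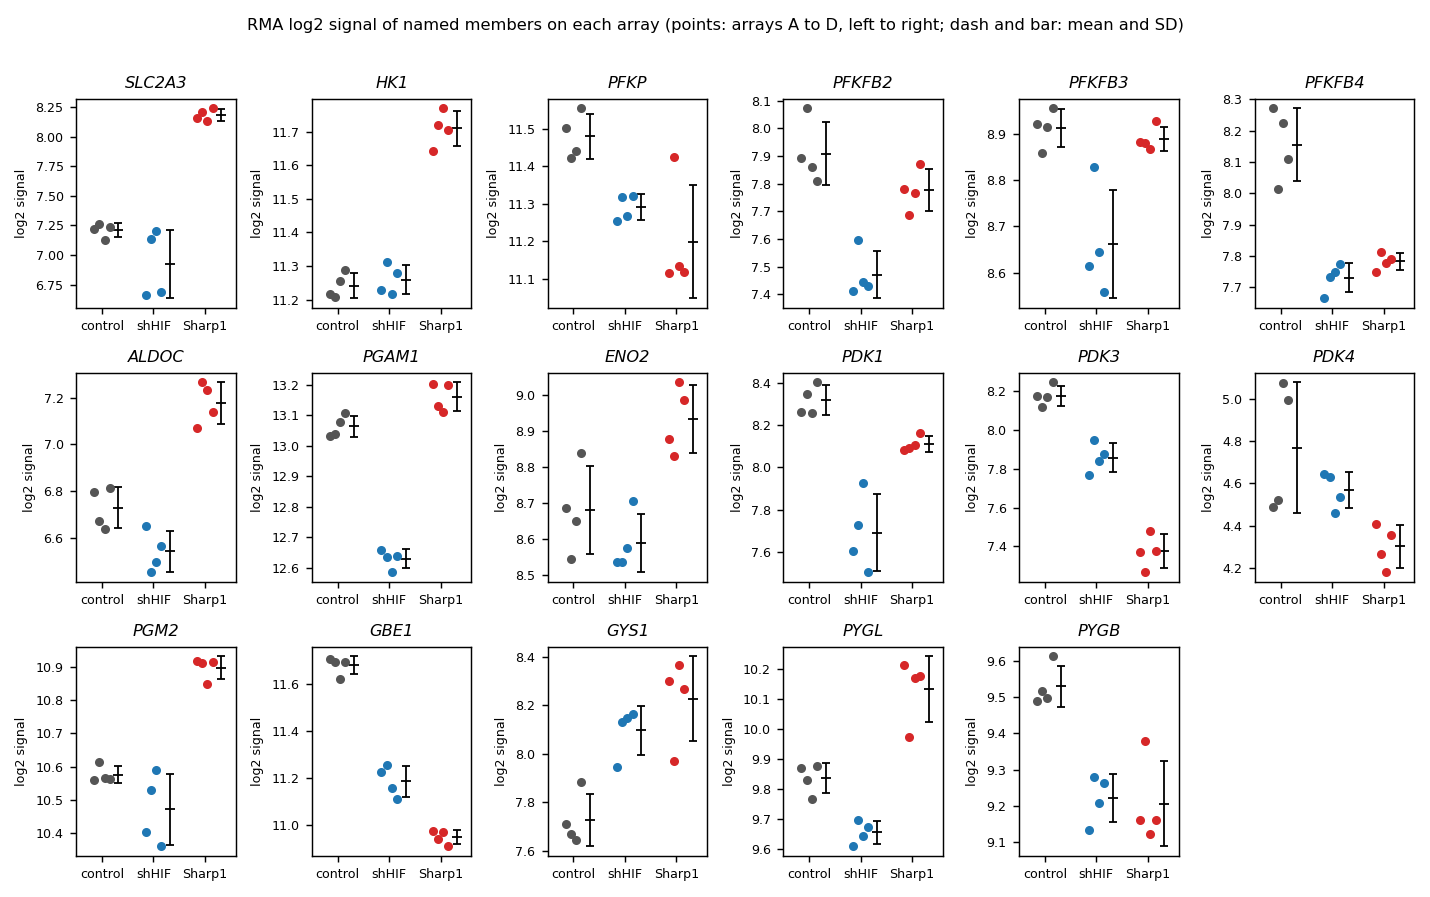
Log2 signal (y axis, a scale of its own for each gene and not starting at 0) of the members called with a difference of at least 0.25 against control, on arrays A to D (points, left to right) of each group (x axis), with the mean and SD as a dash and bar. The SLC2A3 points of the Sharp1 arrays lie between 8.13 and 8.24, above all others, and the GBE1 points step down from control (11.62 to 11.71) through shHIF (11.11 to 11.26) to Sharp1 (10.91 to 10.98).

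Phosphofructokinase, the committed step, is a tetramer of liver, muscle and platelet subunits. PFKP, the platelet subunit, read 11.50, 11.42, 11.44 and 11.55 in control, 11.26, 11.32, 11.27 and 11.32 in shHIF and 11.12, 11.42, 11.14 and 11.12 in Sharp1 cells. Sharp1 array B sat at the level of control B, and the other Sharp1 arrays lay below every shHIF array. PFKP fell by 0.28 in Sharp1 (SE 0.05, adjusted p = 0.000157) and by 0.19 in shHIF cells (SE 0.05, adjusted p = 0.00689, or 0.0533 without the variance trend). Its second probe set read 3.63 in control, far below the median probe set, and was not called. The difference between the groups, -0.09 (adjusted p = 0.180), was -0.17 without Sharp1 B (0.00158). PFKL, the liver subunit, rose by 0.24 in Sharp1 (SE 0.07, adjusted p = 0.00592) and by 0.20 in shHIF cells (SE 0.07, adjusted p = 0.0224). The shHIF call was lost without control B (0.0951), shHIF D (0.0905) or shHIF A and D (0.0915). PFKM, the muscle subunit, differed by -0.11 and -0.12 and was not called, except in shHIF cells without control B (0.0407), shHIF D (0.0221) or shHIF A and D (0.0426).

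All 3 PFKFB enzymes fell in shHIF cells and 1 of them in Sharp1 cells. PFKFB4, a hypoxia-inducible isoform, read 8.27, 8.01, 8.23 and 8.11 in control, 7.67, 7.73, 7.75 and 7.78 in shHIF and 7.75, 7.81, 7.78 and 7.79 in Sharp1 cells. Control arrays lay above all others, and the remaining groups overlapped. It fell by 0.42 in shHIF (SE 0.06, adjusted p = 9.27e-06) and by 0.37 in the Sharp1 group (SE 0.06, adjusted p = 5.05e-05), and both directions rest on its brightest probe set, since the other, near 5.45, was not called. PFKFB3, the isoform with the strongest bias toward making fructose 2,6-bisphosphate, read 8.92, 8.86, 8.92 and 8.96 in control, 8.61, 8.83, 8.65 and 8.56 in shHIF and 8.88, 8.88, 8.87 and 8.93 in Sharp1 cells. Only the shHIF arrays stood apart, with array B nearest to control. PFKFB3 fell by 0.25 in shHIF cells (SE 0.06, adjusted p = 0.000966) and differed by -0.02 in Sharp1 cells (adjusted p = 0.839). The Sharp1 and shHIF cells differed by 0.23 (adjusted p = 0.00176), a call lost without shHIF A and D (0.0582).

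PFKFB2, the isoform named for heart, read 7.89, 8.07, 7.86 and 7.81 in control, 7.41, 7.60, 7.44 and 7.43 in shHIF and 7.78, 7.69, 7.77 and 7.87 in Sharp1 cells on its brightest probe set. There the shHIF arrays lay below all others, with array B the nearest, and the remaining groups overlapped. It fell by 0.44 in shHIF cells (SE 0.07, adjusted p = 2.03e-05) and differed by -0.13 in Sharp1 cells (adjusted p = 0.189). Another of its 4 probe sets, at 5.58 in control, gave the opposite order: -0.63 in Sharp1 (adjusted p = 0.00148 over all probe sets) and 0.19 in shHIF cells (0.376). PFKFB2 was the only member whose probe sets were called in opposite directions, in Sharp1 against shHIF (0.31 and -0.82).

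Among the aldolases, ALDOC, the brain isoform, read 6.80, 6.67, 6.64 and 6.81 in control, 6.65, 6.45, 6.50 and 6.57 in shHIF and 7.07, 7.26, 7.23 and 7.14 in Sharp1 cells. Sharp1 arrays were the highest, and shHIF A lay among the control arrays. ALDOC rose 1.36-fold in Sharp1 cells (log2 0.45, SE 0.08, adjusted p = 6.43e-05). In shHIF cells the difference was -0.19 (adjusted p = 0.0722), which passed without shHIF A (0.0428), without shHIF A and D (0.0394), without dim genes (0.0432) or without the variance trend (0.0447). ALDOA, the main aldolase of most cells, lay within 0.04 of control in both groups and was not called. TPI1, the triose isomerase, was not called on its brightest probe set (0.08 and 0.04, mean signal 12.89), except in Sharp1 cells with array centring (adjusted p = 0.0497). A TPI1 probe set of nearly the same brightness (12.85) rose by 0.13 in Sharp1 cells (adjusted p over all probe sets 0.00301) and differed by -0.02 in shHIF cells, and the difference between the groups was called there (0.16, 0.000328). GAPDH, which makes the first NADH of the pathway, differed by -0.05 in Sharp1 cells (adjusted p = 0.176) and fell by 0.11 in shHIF cells (SE 0.03, adjusted p = 0.00413, or 0.0856 without the variance trend). Its 3 control probe sets, set aside from the tests, read 14.12 to 14.24 on average in control, 13.93 to 14.09 in shHIF and 14.08 to 14.18 in Sharp1 cells, so a gene often used as a constant reference read lower in shHIF cells by both readings. Sharp1 and shHIF cells differed by 0.05 in GAPDH (adjusted p = 0.143), or by 0.09 without shHIF A and D (0.0132).

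PGK1, which yields the first ATP, fell by 0.18 in each group, from 13.52 ± 0.02 to 13.34 ± 0.04 in Sharp1 (SD, n = 4; SE of the difference 0.03, adjusted p = 9.01e-05) and to 13.34 ± 0.06 in shHIF cells (adjusted p = 9.07e-05). All control arrays (13.50 to 13.54) lay above all others (13.26 to 13.40). Of its 6 probe sets, 6 fell in shHIF and 5 in Sharp1 cells, and the exception, the dimmest (6.19 in control), fell by 0.63 in shHIF cells and differed by -0.10 in Sharp1 cells. PGAM1, the mutase, moved in opposite directions. It read 13.03, 13.04, 13.08 and 13.11 in control, 12.66, 12.64, 12.59 and 12.64 in shHIF and 13.20, 13.13, 13.11 and 13.20 in Sharp1 cells. The groups did not overlap, with shHIF arrays lowest and Sharp1 arrays highest. It fell by 0.44 in shHIF cells (SE 0.03, adjusted p = 8.90e-11), leaving 74% of the control signal. Its rise in Sharp1 cells was 0.10 (SE 0.03, adjusted p = 0.0234) and was lost without control A (0.0852), control B (0.0728), Sharp1 A (0.0881) or Sharp1 D (0.0921), or without the variance trend (0.148). The direct difference was 0.53 (SE 0.03, adjusted p = 6.64e-13).

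ENO2, the enolase known from neurons, read 8.69, 8.54, 8.65 and 8.84 in control, 8.54, 8.54, 8.58 and 8.71 in shHIF and 8.88, 8.83, 9.04 and 8.99 in Sharp1 cells. Control D lay among the Sharp1 arrays, and the others lay below them. ENO2 rose by 0.25 in the Sharp1 group (SE 0.06, adjusted p = 0.00338) and differed by -0.09 in shHIF cells (adjusted p = 0.307). ENO1, the common enolase, fell by 0.12 in shHIF cells (SE 0.03, adjusted p = 0.0112, or 0.0510 without control D and 0.101 without the variance trend). In Sharp1 cells ENO1 differed by -0.08 (adjusted p = 0.0854), and by -0.12 without array B (adjusted p = 0.00588), which at 13.55 lay above the other Sharp1 arrays. It was also called there with array weights (0.0328), and a second bright ENO1 probe set fell by 0.12 in Sharp1 cells (adjusted p over all probe sets 0.00792). PKM, the pyruvate kinase of tumour cells, was not called in either group on its brightest probe set (-0.15 and -0.05). Sharp1 array B read 10.23 there, against 10.68 to 10.76 on the other Sharp1 arrays. The dimmer PKM probe set (mean signal 7.44) fell by 0.28 in shHIF cells without overlap (adjusted p over all probe sets 0.00647) and differed by -0.19 in Sharp1 cells (0.0734).

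Both lactate dehydrogenase subunits fell in Sharp1 cells and 1 of them in shHIF cells. LDHA, the subunit that favours making lactate and a textbook HIF target, read 14.17, 14.18, 14.16 and 14.20 in control, 14.03, 13.97, 13.98 and 13.94 in shHIF and 13.99, 14.02, 13.97 and 14.04 in Sharp1 cells. Control arrays lay above all others, and the shHIF and Sharp1 arrays overlapped. LDHA fell by 0.17 in Sharp1 (SE 0.03, adjusted p = 2.15e-05) and by 0.20 in shHIF cells (SE 0.03, adjusted p = 2.98e-06), with 88.7% and 87.1% of the control signal left. LDHB, the subunit that favours using lactate, read 13.70 to 13.74 in control, 13.65 to 13.71 in shHIF and 13.51 to 13.57 in Sharp1 cells. It fell by 0.18 in the Sharp1 group (SE 0.03, adjusted p = 7.75e-06) and differed by -0.04 in shHIF cells (adjusted p = 0.303), and the difference between the groups was called (-0.14, adjusted p = 0.000114). These signals near 14 are close to the highest on the arrays, where a change in RNA can give a smaller change in signal, which was not tested here.

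Of the 4 pyruvate dehydrogenase kinases, PDK1 and PDK3 fell in both groups, PDK1 farther in shHIF cells and PDK3 farther in Sharp1 cells, and PDK4 fell in Sharp1 cells. PDK1, the isoform known as a HIF target, read 8.26, 8.35, 8.26 and 8.40 in control, 7.61, 7.73, 7.93 and 7.50 in shHIF and 8.08, 8.09, 8.11 and 8.16 in Sharp1 cells. The 3 groups did not overlap, and the shHIF arrays were lowest and most spread. PDK1 fell by 0.63 in shHIF cells (SE 0.07, adjusted p = 2.35e-07), leaving 64.8% of the control signal. Its fall in Sharp1 cells was 0.21 (SE 0.07, adjusted p = 0.0356), a call lost in 10 of 23 alternatives, among them without control B (0.0840), control D (0.106), Sharp1 A (0.0818), Sharp1 B (0.0687) or Sharp1 C (0.0707). None of its 3 probe sets was called in Sharp1 cells in the fit over all probe sets.

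PDK3 (NCBI gene 5165) read 8.17, 8.12, 8.17 and 8.24 in control, 7.77, 7.95, 7.84 and 7.88 in shHIF and 7.37, 7.27, 7.48 and 7.38 in Sharp1 cells. Again the groups did not overlap, but here the Sharp1 arrays were lowest. PDK3 fell by 0.80 in the Sharp1 group (SE 0.06, adjusted p = 2.68e-10), leaving 57.4% of the control signal. All 5 of its probe sets fell there, by 0.57 to 0.81. In shHIF cells the brightest probe set fell by 0.32 (SE 0.06, adjusted p = 0.000353) and the other 4 were not called, with differences from -0.27 to 0.13. The difference between Sharp1 and shHIF cells was -0.48 for PDK3 (adjusted p = 8.82e-07) and 0.42 for PDK1 (adjusted p = 3.91e-05).

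PDK4, the isoform of fasting and lipid use, was dim in every group, at 4.49, 4.52, 5.07 and 4.99 in control, 4.64, 4.63, 4.46 and 4.53 in shHIF and 4.41, 4.26, 4.18 and 4.36 in Sharp1 cells. Sharp1 arrays lay below all others, and control arrays C and D stood above the rest. It fell by 0.47 in the Sharp1 group (SE 0.12, adjusted p = 0.00363), a size that rests on readings below the median probe set. PDK2 differed by 0.14 in Sharp1 and 0.19 in shHIF cells and was not called, except higher in shHIF cells without shHIF B (0.0473), without dim genes (0.0492) or with the mean of its probe sets (0.0126). Its dimmer probe set rose by 0.23 in shHIF cells (adjusted p over all probe sets 0.0333) and differed by 0.01 in Sharp1 cells.

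All 6 members of the list's glycogen group were called in Sharp1 cells, 3 higher and 3 lower, and 5 in shHIF cells, 1 higher and 4 lower. GBE1 (NCBI gene 2632), the branching enzyme, read 11.71, 11.69, 11.62 and 11.70 in control, 11.22, 11.26, 11.16 and 11.11 in shHIF and 10.98, 10.94, 10.97 and 10.91 in Sharp1 cells. The groups formed 3 separate steps, with Sharp1 arrays lowest. GBE1 fell by 0.73 in the Sharp1 group (SE 0.04, adjusted p = 9.28e-14), leaving 60.3%, and by 0.49 in shHIF cells (SE 0.04, adjusted p = 2.85e-10), leaving 71%. The difference between the groups, -0.24 (SE 0.04), had an adjusted p of 1.55e-05.

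GYS1, the glycogen synthase of muscle and most tissues, read 7.71, 7.67, 7.64 and 7.88 in control, 7.95, 8.13, 8.15 and 8.16 in shHIF and 8.30, 7.97, 8.37 and 8.27 in Sharp1 cells. All shHIF and Sharp1 arrays lay above control, with shHIF A and Sharp1 B the nearest to it. GYS1 rose by 0.50 in Sharp1 (SE 0.08, adjusted p = 1.78e-05) and by 0.37 in shHIF cells (SE 0.08, adjusted p = 0.000617). The difference between them, 0.13, was not called (adjusted p = 0.210), and was 0.21 without Sharp1 B (adjusted p = 0.0207).

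The phosphorylases, which release glucose units from glycogen, moved in opposite directions in Sharp1 cells and both fell in shHIF cells. PYGB, the brain form, read 9.49, 9.52, 9.50 and 9.61 in control, 9.13, 9.28, 9.21 and 9.26 in shHIF and 9.16, 9.38, 9.12 and 9.16 in Sharp1 cells. Control arrays lay above all others. PYGB fell by 0.32 in Sharp1 (SE 0.06, adjusted p = 5.90e-05) and by 0.31 in shHIF cells (SE 0.06, adjusted p = 0.000110). PYGL, the liver form, read 9.87, 9.83, 9.77 and 9.88 in control, 9.61, 9.70, 9.64 and 9.67 in shHIF and 10.21, 9.97, 10.17 and 10.18 in Sharp1 cells. The 3 groups did not overlap, with Sharp1 highest and shHIF lowest. PYGL rose by 0.30 in the Sharp1 group (SE 0.05, adjusted p = 4.42e-05) and fell by 0.18 in shHIF cells (SE 0.05, adjusted p = 0.00685).

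Among the genes named as phosphoglucomutases, PGM2 rose and PGM1 fell in Sharp1 cells. PGM2 read 10.56, 10.61, 10.57 and 10.56 in control, 10.40, 10.53, 10.59 and 10.36 in shHIF and 10.92, 10.91, 10.85 and 10.92 in Sharp1 cells. Sharp1 arrays lay above all others, and shHIF arrays A and D were the lowest. PGM2 rose by 0.32 in the Sharp1 group (SE 0.04, adjusted p = 3.46e-06), and each of its 3 probe sets rose there. In shHIF cells the difference was -0.10 (adjusted p = 0.0849, or 0.0129 without shHIF C). PGM1 fell by 0.21 in shHIF cells (SE 0.04, adjusted p = 0.000455) and by 0.14 in the Sharp1 group (SE 0.04, adjusted p = 0.0163), where the call was lost without Sharp1 A (0.0769) or Sharp1 C (0.0639), with array centring (0.0569) or without the variance trend (0.0781).

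Where several probe sets of a gene were called against control, they gave the same direction. Probe sets without a call could differ in sign from the called one. In shHIF cells this was so for several genes, among them PFKP (-0.19 called, 0.19 not) and PFKFB4 (-0.42 called, 0.06 not). Of the 71 probe sets of the members, 16 rose and 21 fell in Sharp1 cells, where 9.82% and 8.26% of all probe sets did. In shHIF cells 3 rose and 29 fell, where 10.7% and 11.5% did. These shares cover dim and unnamed probe sets too, and none was counted among brighter ones, so they are no like background. Of the 20 members with more than 1 probe set, none had calls in opposite directions in either comparison against control.

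**Figure D3:**
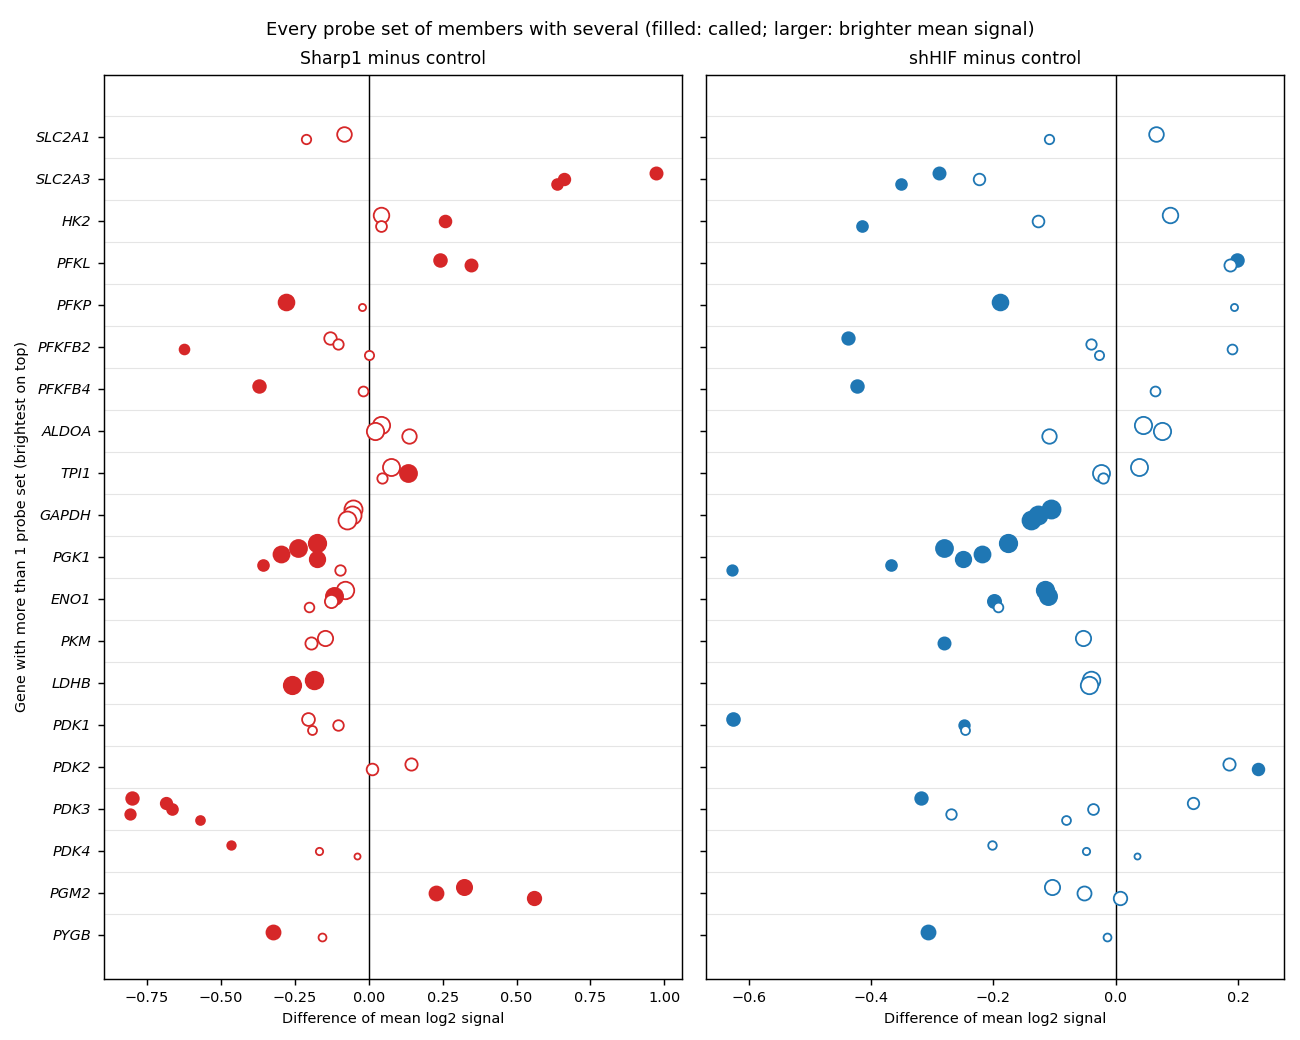
Difference of mean log2 signal from control (x axis) for every probe set of the 20 members with more than 1 (y axis, brightest probe set on top) in Sharp1 (left, red) and shHIF cells (right, blue), filled where called and larger where the mean signal is brighter, on x axes of different range. All 5 PDK3 points are filled in Sharp1 cells, between -0.57 and -0.81, and 1 of 5 in shHIF cells, while all 6 PGK1 points are filled in shHIF cells.

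Genes that border the pathway were read from 8 lists of measured neighbours. In each list 32% to 60% of the genes were called in Sharp1 cells, where 27.2% of all genes and 45.8% of those at or above the median signal were, and 12.5% to 70% in shHIF cells, where 30.8% and 50.1% were. Counts near these shares show nothing particular to a list. Of 20 other glycolytic and lactate genes, 4 rose and 3 fell in Sharp1 cells, and 2 rose and 6 fell in shHIF cells. SLC16A7 (MCT2), a monocarboxylate transporter of high affinity, fell by 2.07 in Sharp1 (SE 0.08, adjusted p = 3.61e-16) and by 0.92 in shHIF cells (SE 0.08, adjusted p = 2.66e-09), from 8.73 ± 0.18 in control to 6.66 ± 0.14 and 7.81 ± 0.04. BSG (basigin), the chaperone of other monocarboxylate transporters, fell by 0.48 in Sharp1 cells and differed by 0.08 in shHIF cells, while the related EMB (embigin) rose by 0.24 and fell by 0.73. Of 16 other transporters and sugar kinases, 3 rose and 3 fell in Sharp1 cells, and 1 rose and 1 fell in shHIF cells. SLC2A13, which carries myo-inositol, fell by 0.83 and 0.90.

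Pyruvate entry into the mitochondria had 1 of 10 genes higher and 4 lower in Sharp1 cells and 3 and 4 in shHIF cells. DLD, a subunit of the dehydrogenase complex, fell in both groups (0.41 and 0.36), PDHX, its binding protein, fell by 0.73 in shHIF cells and rose by 0.15 in Sharp1 cells (adjusted p = 0.0120, or 0.0570 without control A), and DLAT fell by 0.54 in shHIF cells. Glycogen and galactose handling had 2 of 25 higher and 6 lower in Sharp1 cells and 2 and 4 in shHIF cells. PPP1R3B, a targeting subunit that activates glycogen synthase, fell by 0.58 in Sharp1 cells and differed by 0.06 in shHIF cells, and PGM2L1 rose by 0.46 and 0.52. The pentose phosphate pathway had 3 of 10 higher and 1 lower in Sharp1 cells and 4 and 3 in shHIF cells, with H6PD, PRPS2 and RPE lower in shHIF cells by 0.59, 0.47 and 0.42. Gluconeogenesis had 2 of 7 higher and 1 lower in Sharp1 cells and 1 and 3 in shHIF cells, and PCK2, the mitochondrial PEP carboxykinase, rose by 0.62 in Sharp1 cells and fell by 0.34 in shHIF cells.

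The hexosamine and serine branches, which draw on glycolytic intermediates, had 5 of 10 genes higher and 1 lower in Sharp1 cells and 1 higher and 6 lower in shHIF cells. In Sharp1 against shHIF cells, 8 of the 10 (80%) were higher and 1 lower, where 18% of all genes and 31% of those at or above the median signal were higher. The list was set with earlier results of these data known, so this share is description and no test. PHGDH, PSAT1 and PSPH, the 3 enzymes of serine synthesis, rose by 0.28, 0.33 and 0.40 in Sharp1 cells and fell by 0.48, 0.31 and 0.18 in shHIF cells. Their place among the 8 follows from these opposite calls against the same control and is no separate result. The PSPH fall was lost without control A (adjusted p = 0.102), control D (0.0760), shHIF A (0.0623), shHIF D (0.132) or shHIF A and D (0.461). In the hexosamine branch, GNPNAT1 fell by 1.32 in shHIF cells and differed by -0.05 in Sharp1 cells, GFPT1, the entry enzyme, fell by 0.76 and 0.25, and UAP1 rose by 0.45 in Sharp1 cells only, with a difference between the groups of 0.43 (adjusted p = 5.29e-10). Among 22 regulators of glycolytic genes, 3 rose and 9 fell in Sharp1 cells and 6 rose and 6 fell in shHIF cells. BHLHE41 itself counts among the falls through its brightest probe set (-2.06), while 2 of its others rose by 5.35 and 1.59. MXI1, an antagonist of MYC, fell by 1.86 in Sharp1 cells and rose by 0.26 in shHIF cells, and ARRDC4, an arrestin that limits glucose uptake, rose by 1.47 in shHIF cells and differed by 0.06 in Sharp1 cells. TXNIP, its relative of like function, chosen after its values were seen, rose by 0.56 in shHIF cells and fell by 0.23 in Sharp1 cells.

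**Figure D4:**
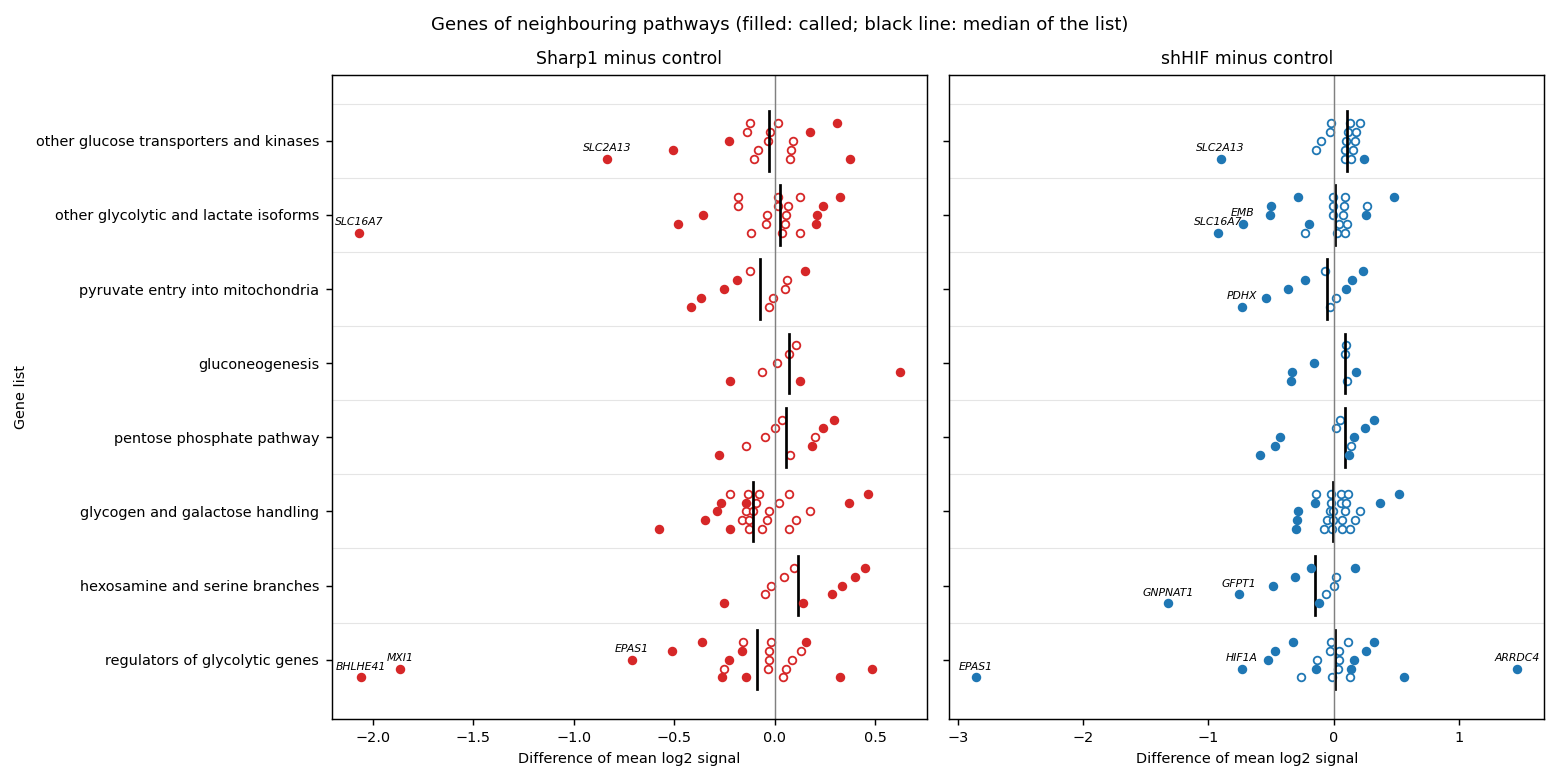
Difference of mean log2 signal from control (x axis) of each gene of the 8 neighbouring lists (y axis) in Sharp1 (left, red) and shHIF cells (right, blue), filled where called, with a black line at each list's median, on x axes of different range. The hexosamine and serine genes have a median of 0.12 in Sharp1 and -0.15 in shHIF cells, and SLC16A7 lies at -2.07 and -0.92.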

How the data were processed

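RNA of the 12 samples was measured on whole-genome arrays of 54675 probe sets, 62 of them control probe sets. The deposited values are log2 signals made by the authors with RMA, per the submitters' processing notes, which corrects background, makes the arrays' distributions equal and gives 1 value per probe set. No count depth stands behind such values, and precision is limited by how many arrays there are and how far a probe set lies above background. Equalised distributions report changes relative to the other transcripts. The sources used here do not name an RMA version.

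The platform annotation named the probe sets: 41091 had 1 symbol, 1801 several and 11721 none, and only those with 1 entered the gene tests. Each of 19775 genes was read on the probe set of highest mean over all arrays. A mean per group was fitted to all 12 arrays in limma 3.58.1 (R 4.3.3) with eBayes and trend. Each of 3 comparisons had its p-values adjusted over all 19775 genes (Benjamini-Hochberg), and an adjusted p under 0.05 was a call. A second fit held all probe sets except controls. No 2 arrays held identical values. Same-letter replicates did not deviate together: of 12 same-letter pairs, 1 had a correlation above 0.1, so the letters were not taken as pairs.

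The members, the neighbouring lists and the tests were chosen with earlier results of these data known. Array values are printed for members called at 0.25 or more against control, and in each neighbouring list the 3 called genes with the largest change per comparison could be named. The alternatives were 23 in number: another choice or mean of probe sets, all probe sets in the fit, array centring, no dim genes, only the groups compared, no trend, robust variance, array weights, the replicate block, no shHIF A and D, and each array left out. Promoter sequences are RefSeq's. In a simulated Sharp1 comparison of 19775 genes, the fit called 22% of 50 genes moved by 0.25, 76% of 50 moved by 0.5 and 100% of those moved by 1 or 2, and 7 of its 156 calls were false. The real Sharp1 comparison made 5370 calls, so its adjusted p allowed larger p-values than the simulation did. These shares therefore do not give the sensitivity of the member calls.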

Additional observations from a re-analysis of the deposited data

Results flagged for a closer look

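Of 96 groups of 4 arrays (32 members in 3 groups), 9 had 1 array set apart from the other 3, where chance gives about 1 in 20. Sharp1 array B was the array in 3 of them: it read 11.42 for PFKP against 11.12 to 11.14 on the other Sharp1 arrays, 10.23 for PKM against 10.68 to 10.76, and 9.38 for PYGB against 9.12 to 9.16. Ribosomal RNA signal was lowest on that array (12.8). Sharp1 array C read 7.71 for PDK2 against 7.47 to 7.51, and 10.85 for PGM2 against 10.91 to 10.92. In shHIF cells, array B read 7.60 for PFKFB2 against 7.41 to 7.44, and array A read 7.95 for GYS1 against 8.13 to 8.16. In control cells, array B read 10.61 for PGM2 against 10.56 to 10.57, and array C read 11.62 for GBE1 against 11.69 to 11.71.

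A pair of probe sets outside the gene tests, which the annotation assigns to SLC2A14 and SLC2A3 together, also read higher in Sharp1 cells. One rose by 0.39 (SE 0.09, limma adjusted p over all probe sets 0.00406) and the other by 0.70 (SE 0.09, adjusted p = 3.92e-06), from 6.25 and 6.26 in control. In shHIF cells they differed by -0.10 (adjusted p = 0.501) and -0.13 (0.381).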

How the results depend on the processing

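Over 23 alternatives, 15 of 20 member calls in Sharp1 against control, 11 of 18 in shHIF against control and 12 of 15 in Sharp1 against shHIF held in every one. The count of members called ranged from 8 to 10 higher and 9 to 12 lower in Sharp1 cells and from 1 to 4 higher and 13 to 17 lower in shHIF cells. Leaving out 1 array at a time gave 1 to 3 members and 1 to 5 probe sets higher in shHIF cells (2 and 3 with all arrays): without control B both were 1, without shHIF D the probe sets were 1 and without shHIF C they were 5. Without dim genes, 4 members were higher in shHIF cells, and with centring, or without shHIF A and D, 1 probe set was. With the replicate block, 9 members were higher and 12 lower in Sharp1 cells and 3 higher and 16 lower in shHIF cells, with 10 and 5 in Sharp1 against shHIF, and GPI was called in both comparisons against control (adjusted p = 0.0458 and 0.0476). Directions reversed where another probe set, or the mean of all, stood for a gene. With the mean, BHLHE41 read 1.19 in Sharp1 cells and 1.16 against shHIF, HK2 -0.15 in shHIF cells and 0.26 in Sharp1 against shHIF, PFKP 0.0022 in shHIF cells, and PFKFB2 -0.14 in Sharp1 against shHIF. With the probe set of largest spread, BHLHE41 read 5.35 and TKT, of the pentose phosphate pathway, 0.20 in Sharp1 cells (-0.28 on the brightest), and HK2 -0.42, PFKFB2 0.19 and PFKP 0.19 in shHIF cells. In Sharp1 against shHIF that choice gave BHLHE41 5.26, ALDOA 0.25, HK2 0.46, PFKFB2 -0.82, PGK1 0.53, PGM2L1 0.30 and SLC2A11 -0.33. The cause of these reversals was not tested. Without dim genes fewer genes are tested, which eases the adjustment. Precision differs between members, with an SE of the Sharp1 difference of 0.03 for LDHA and 0.12 for PDK4.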
